A study of Homo sapiens with 40 samples.

Results

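Polychlorinated biphenyl 126 (PCB 126) is a dioxin-like PCB, a persistent pollutant that binds the aryl hydrocarbon receptor (AhR). The transcriptome of HepaRG cells, a human liver line whose differentiated cultures hold hepatocyte-like and biliary-like cells, was measured by RNA sequencing after exposure to this compound. The comparison described here set the 5 libraries of cells exposed to 1 µM PCB 126 against the 5 libraries of solvent control cells. These 10 libraries were chosen by their treatment labels among the 20 libraries of the PCB 126 experiment, which also held 5 libraries at 10 nM and 5 at 100 pM, and among 40 libraries in the whole series. All groups were the same purchased, terminally differentiated HepaRG cells. They were kept in general purpose medium up to day 8 and then, until day 14, in a test medium with foetal bovine serum and DMSO, so that the controls received serum and solvent too. HepaRG is a single cell line, and the labels do not say whether the 5 libraries of a group came from separate cultures, so the p-values measure the spread between these libraries, which may be technical.

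The AhR rests in the cytosol in a chaperone complex and, once a ligand is bound, moves to the nucleus, pairs with ARNT and binds short DNA elements with the core GCGTG. Its classical targets are the cytochromes P450 CYP1A1, CYP1A2 and CYP1B1, which oxidise planar aromatic compounds, and the ADP-ribosyltransferase TIPARP, which in turn restrains the receptor. Hepatocytes also make most plasma proteins, among them albumin, clotting factors and complement, and AhR ligands are known for effects on liver lipid and hormone metabolism.

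The values were FPKM, fragments per transcript length and sequencing depth, summed over the transcripts of a gene. Each library was divided by a scale factor taken from the genes detected in all 20 libraries, and these factors ran from 0.556 to 1.39. The results below are given as scaled FPKM, with the libraries in the order replicate 1 to 5, or as log2 fold changes on the log2(scaled FPKM + 1) scale, which understates the change of low genes. A total of 9755 genes whose FPKM varied enough between libraries were tested. The read depth behind a value was not used here, so no interval for counting error is given, and the precision is limited by the 5 libraries of each group. Replicate 1 of the 1 µM group stood apart: it had the lowest scale factor, its values deviated from its group mean by 0.722 (root mean square, log2 scale) against 0.318 to 0.509 in the other 19 libraries, and 206 tested genes were listed at 0 in it against 53 to 110 in the other libraries at 1 µM. It held the lowest value of its group in 323 of the 539 genes called lower and the highest in 342 of the 546 called higher, so fold changes are also given without it for some of the genes that move.

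The 14 hepatocyte markers differed widely in level, and 5 had a positive log2 fold change at 1 µM against 9 with a negative one. TAT was low in the control, at 0.453 to 0.688 scaled FPKM. HNF4A was at 15.96, 16.3, 17.9, 18.4 and 18.7 in the control and at 36.6, 28.5, 18.2, 37.2 and 27.8 at 1 µM. It was called higher (log2 fold change 0.69, adjusted p = 0.0191), with overlapping groups. The call of HNF4A was lost without scaling (adjusted p = 0.526) and without control replicate 5 and 1 µM replicates 1 and 5. HNF4A is not among the 115 genes counted as named below. Albumin (ALB) was at 8187, 8800.3, 9096, 11989.7 and 13502 scaled FPKM in the control libraries and at 5252, 4934, 4358, 7737 and 7838 at 1 µM. The alpha-1-antitrypsin gene SERPINA1 was at 4939.5, 3629.9, 2359, 3818 and 3758 in the control and at 2777, 2160.0, 1923, 2603 and 3157 at 1 µM. It did not pass the test (log2 fold change -0.54, adjusted p = 0.0974), except without control replicate 3 (adjusted p = 0.0274). Of the biliary markers, KRT19 was present, at 235, 271, 327, 230.0 and 279 in the control and at 354, 144, 164, 158 and 134 at 1 µM, and passed the test only without replicate 1 of the 1 µM group (log2 fold change -0.83, adjusted p = 0.0115, against -0.58 and 0.151) or with weights for the libraries. KRT7 was at no more than 1.16 and EPCAM at no more than 0.0288 in any of the 10 libraries. Markers of macrophages, endothelium and lymphocytes summed to 4.67 to 10.7 scaled FPKM in the control libraries and to 3.92 to 7.40 at 1 µM, and CDH5 and CLEC4G were listed at 0 in all 10.

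The sequences before the start sites of 6 raised genes are shown because they hold the core to which the AhR binds. They come from RefSeq (build GRCh38.p14), cover the 250 bases before the annotated start and run 5′ to 3′ on the strand of the gene. Capitals mark GCGTG, or CACGC where the match is on the other strand, and overlapping matches were counted separately. Of the 12 largest rises described below, CYP1A1 and CYP1A2, those with a RefSeq window in the table used here were searched, and these had the largest rises with a match before the start:
CYP1A1, chr15:74725529-74725778, minus strand: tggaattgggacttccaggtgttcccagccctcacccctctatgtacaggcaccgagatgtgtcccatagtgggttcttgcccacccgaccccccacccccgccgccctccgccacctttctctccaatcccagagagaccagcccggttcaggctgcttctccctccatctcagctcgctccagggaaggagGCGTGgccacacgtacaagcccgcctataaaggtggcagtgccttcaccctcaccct
IL17RB, chr3:53846318-53846567, plus strand: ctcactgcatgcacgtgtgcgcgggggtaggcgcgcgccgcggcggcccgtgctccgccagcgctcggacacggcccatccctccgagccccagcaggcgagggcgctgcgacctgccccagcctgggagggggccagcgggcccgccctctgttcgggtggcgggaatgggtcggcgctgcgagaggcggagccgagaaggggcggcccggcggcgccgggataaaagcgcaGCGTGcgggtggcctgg
STC2, chr5:173328415-173328664, minus strand: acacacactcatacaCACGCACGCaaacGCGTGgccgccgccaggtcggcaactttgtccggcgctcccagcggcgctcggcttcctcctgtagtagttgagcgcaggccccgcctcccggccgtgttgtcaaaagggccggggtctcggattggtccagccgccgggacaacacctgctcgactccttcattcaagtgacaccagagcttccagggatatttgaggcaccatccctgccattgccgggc
TIPARP, chr3:156674340-156674589, plus strand: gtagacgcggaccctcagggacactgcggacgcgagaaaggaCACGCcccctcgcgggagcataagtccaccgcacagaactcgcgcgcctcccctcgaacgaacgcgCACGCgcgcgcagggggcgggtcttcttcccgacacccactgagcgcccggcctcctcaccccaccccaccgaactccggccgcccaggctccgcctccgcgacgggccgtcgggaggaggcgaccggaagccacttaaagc
CYP1B1-AS1, chr2:38130855-38131104, plus strand: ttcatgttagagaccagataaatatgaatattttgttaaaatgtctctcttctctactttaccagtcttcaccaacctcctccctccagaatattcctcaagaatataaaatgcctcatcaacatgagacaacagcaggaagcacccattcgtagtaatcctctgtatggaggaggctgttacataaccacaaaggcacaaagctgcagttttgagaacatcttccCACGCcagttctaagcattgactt
PLEKHF1, chr19:29665211-29665460, plus strand: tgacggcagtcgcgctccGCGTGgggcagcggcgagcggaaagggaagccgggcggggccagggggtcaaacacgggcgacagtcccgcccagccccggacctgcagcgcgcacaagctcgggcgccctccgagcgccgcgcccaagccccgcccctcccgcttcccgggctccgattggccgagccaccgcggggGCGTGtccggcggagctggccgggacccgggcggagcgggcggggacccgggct
CYP1A1 held 1 match, at -57 from the start, CYP1B1-AS1 held 1 at -24 and IL17RB 1 at -17. TIPARP held matches at -208 and -142 in this window, and none in the windows of its 2 other annotated starts. PLEKHF1 held matches at -232 and -54, and STC2 held 3, at -235, -231 and -222. The longer form TNGCGTG was in the windows of STC2 and CYP1B1-AS1. SLC2A1 had its 1 match after the start, at 26. GCGTG was in 36.5% of all 35116 RefSeq windows of 300 bases (250 before to 50 after a start) and TNGCGTG in 5.51% of them. Among the windows of tested genes the shares were 49.0% and 7.10%, so a match alone says little. GCGTG was in 47.0% of the windows of genes called higher, 43.4% of those called lower and 49.4% of those not called, so the core was not more frequent in the windows of raised genes. TNGCGTG was in 5.61%, 5.91% and 7.27% of the same windows. Only 7252 of the 9755 tested genes, and 402 of the 546 called higher, could be matched to a window, so these shares are a description and were not tested.

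At 1 µM PCB 126, 1085 of 9755 genes passed the limma test against the control at an adjusted p of 0.05, which is 11.1% of the genes tested. Of these, 546 were higher (5.60%) and 539 were lower (5.53%), and 8670 did not pass. The typical change was modest: the median log2 fold change was 0.66 among genes called higher and -0.66 among those called lower. Changes of more than 1 on the log2 scale were seen in 140 genes called higher and 128 called lower, and changes of more than 2 in 28 and 11. The 5 values at 1 µM lay wholly above the 5 control values in 548 genes (5.62% of those tested) and wholly below them in 505 (5.18%), together 10.8%. Both called and without overlap were 830 genes (8.51%). These counts depend on the scaling between libraries. Without it, 63 genes were called higher (0.646%) and 119 lower (1.22%), 182 of the 1085 calls were shared, the share of calls that were higher went from 50.3% to 34.6%, and the median log2 fold change over all genes went from -0.01 to -0.26. For gene lists, the counts without scaling are therefore given in parentheses, in the order named before them. The count of called members of a list is to be read beside the shares over all genes, 11.1% called, 5.60% higher and 5.53% lower. Without replicate 1 of the 1 µM group, 565 genes were called higher and 579 lower, and 921 of the 1085 calls were shared.

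**Figure D1:**
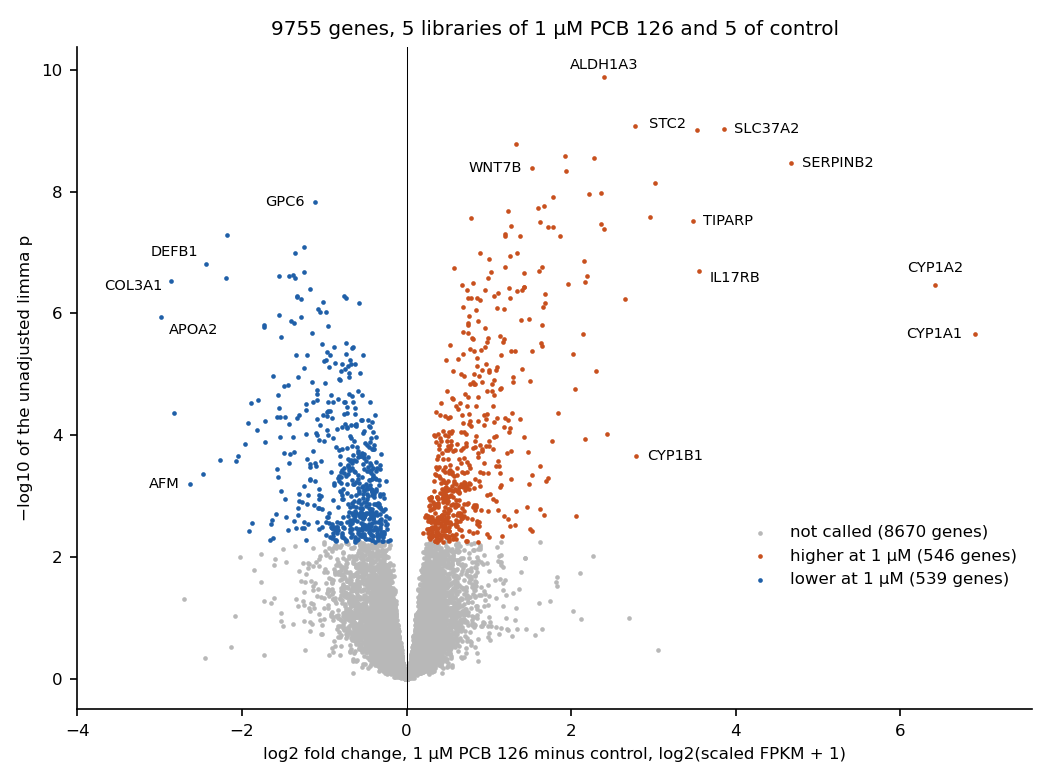
Log2 fold change (1 µM PCB 126 minus control, horizontal axis) against the −log10 of the unadjusted limma p (vertical axis), 1 point for each of 9755 genes, with the 546 genes called higher in orange and the 539 called lower in blue. CYP1A1 and CYP1A2 have the largest rises, at 6.91 and 6.42, and the largest fall is that of APOA2, at -2.99.

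The study named 32 genes of the PCB 126 response, and since it chose them on these libraries they are no independent evidence. In the present fit all 32 were tested, 16 were higher and 14 were lower (7 and 8 without scaling), and 2 did not pass. CYP1A1 was at 5.85, 2.71, 0.146, 0 and 0 scaled FPKM in the control libraries and at 153, 222, 189.8, 345 and 322 at 1 µM, a log2 fold change of 6.91 (SE 1.02, adjusted p = 1.85e-04). Its control values were near 0 or low and its treated values high in every library. CYP1A2, its neighbour on chromosome 15, was at 0.849, 1.24, 1.10, 0.459 and 0.363 in the control and at 84.6, 148, 136, 230.5 and 195 at 1 µM. CYP1B1 was at 19.1, 11.1, 10.2, 10.7 and 11.03 in the control and at 302, 52.8, 46.0, 202 and 38.2 at 1 µM, a log2 fold change of 2.79 (SE 0.61, adjusted p = 0.00523). The treated libraries of CYP1B1 split widely, with replicates 1 and 4 several times above the other 3, although none overlapped with the control. ALDH1A3, which makes retinoic acid from retinal, was at 0.558, 0.797, 0.616, 0.375 and 0.279 in the control and at 8.76, 6.83, 6.88, 6.84 and 5.96 at 1 µM and had the smallest p of any gene (log2 fold change 2.40, SE 0.19, adjusted p = 1.28e-06). On the side of the falls, APOA2, an apolipoprotein of high-density lipoprotein, was at 15.8, 31.3, 33.1, 33.1 and 58.05 in the control and at 1.70, 3.65, 2.85, 3.37 and 4.64 at 1 µM. COL3A1, the chain of type III collagen, was at 7.67, 11.1, 10.1, 15.4 and 11.8 in the control and at 1.48, 0.359, 0.305, 0.816 and 0.524 at 1 µM. Neither gene overlapped between the groups, and their log2 fold changes were -2.99 (SE 0.42) and -2.86 (SE 0.36).

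Beyond these, the 12 largest rises and falls were taken among called genes whose groups did not overlap and whose mean was at least 1 scaled FPKM in the higher group. The largest rise was that of SERPINB2 on chromosome 18, the plasminogen activator inhibitor 2. It was at 1.30, 0.546, 0.438, 0.334 and 0.521 scaled FPKM in the control libraries and at 34.9, 54.0, 48.0, 35.2 and 31.3 at 1 µM. All treated values were far above all control values, with a log2 fold change of 4.68 (SE 0.44, adjusted p = 4.15e-06) and a ratio of the mean scaled FPKM of 64.8. SLC37A2, a sugar phosphate exchanger of the endoplasmic reticulum, was at 2.05, 2.12, 2.48, 2.61 and 2.16 in the control and at 62.2, 49.6, 46.1, 38.3 and 39.7 at 1 µM. Its groups were tight and apart, with a log2 fold change of 3.86 (SE 0.34, adjusted p = 2.40e-06). IL17RB, the receptor subunit that binds interleukin 25, was at 0.145, 0.870, 0, 1.40 and 0.716 in the control and at 7.87, 22.7, 26.9, 19.1 and 15.9 at 1 µM. Replicate 1 was the lowest treated library, still well above the control, and the log2 fold change was 3.56 with it and 3.81 without it. STC2, the secreted glycoprotein stanniocalcin 2, was at 0.648, 0.734, 0.827, 1.00 and 0.259 in the control and at 17.8, 20.9, 19.6, 16.8 and 16.6 at 1 µM. No library came near the other group (log2 fold change 3.53, SE 0.31, adjusted p = 2.40e-06).

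TIPARP was at 4.28, 4.20, 4.51, 3.46 and 3.39 scaled FPKM in the control libraries and at 37.5, 65.2, 60.4, 55.4 and 56.7 at 1 µM, a log2 fold change of 3.48 (SE 0.38). CYB561A3, a member of the cytochrome b561 family of transmembrane ferric reductases, was already expressed in the control, at 12.7, 12.2, 12.3, 10.4 and 11.3, and stood at 94.7, 103, 94.7, 112 and 107 at 1 µM. It had the highest treated level but IGFBP1 among the 12 largest rises, with a ratio of means of 8.67 and little spread in either group. CYP1B1-AS1, the antisense gene beside CYP1B1, was at 2.09, 1.02, 1.5002, 0.726 and 1.93 in the control and at 38.3, 13.7, 14.7, 16.3 and 13.2 at 1 µM. It overlaps the CYP1B1 locus on chromosome 2, the library kit was directional, and whether the counting used strand is not given in the sources used here, so reads of the 2 genes may not have been told apart. SCG5, a secretory granule chaperone of neuroendocrine cells, was at 7.01, 5.97, 6.29, 9.24 and 6.05 in the control and at 83.2, 51.3, 53.2, 47.0 and 38.2 at 1 µM. S100A8, a calcium-binding protein of inflamed epithelia and myeloid cells, was at 0.944, 0.572, 1.13, 0.0357 and 0.175 in the control and at 4.25, 7.74, 14.9, 9.52 and 9.09 at 1 µM. Its groups did not overlap, and as a gene of low level its log2 fold change moved from 2.65 to 4.08 with a pseudocount of 0.1.

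The remaining 3 of the 12 largest rises were those of IGFBP1, SLC2A1 and PLEKHF1. IGFBP1, the hepatic binding protein for insulin-like growth factors, was at 30.7, 18.5, 9.57, 26.4 and 46.4 scaled FPKM in the control libraries and at 74.4, 164, 115, 201 and 132 at 1 µM. Both groups spread widely, the lowest treated value lay above the highest control value, and the log2 fold change was 2.43 (SE 0.49, adjusted p = 0.00295). SLC2A1, the glucose transporter GLUT1, was at 8.01, 8.64, 11.002, 6.37 and 5.36 in the control and at 61.3, 40.4, 48.7, 36.6 and 39.7 at 1 µM (log2 fold change 2.39, SE 0.27). PLEKHF1, a phosphoinositide-binding protein of endosomes and lysosomes, was at 4.87, 4.43, 5.76, 4.33 and 4.63 in the control and at 48.7, 23.5, 24.7, 26.2 and 26.5 at 1 µM. Replicate 1 was the highest treated library for both SLC2A1 and PLEKHF1, and without it their log2 fold changes were 2.28 and 2.18 in place of 2.39 and 2.36. Each of these 12 genes passed the test under all 12 alternative settings and with any 1 of the 10 libraries left out. Their choice as large and separated changes in the same libraries favours this.

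**Figure D2:**
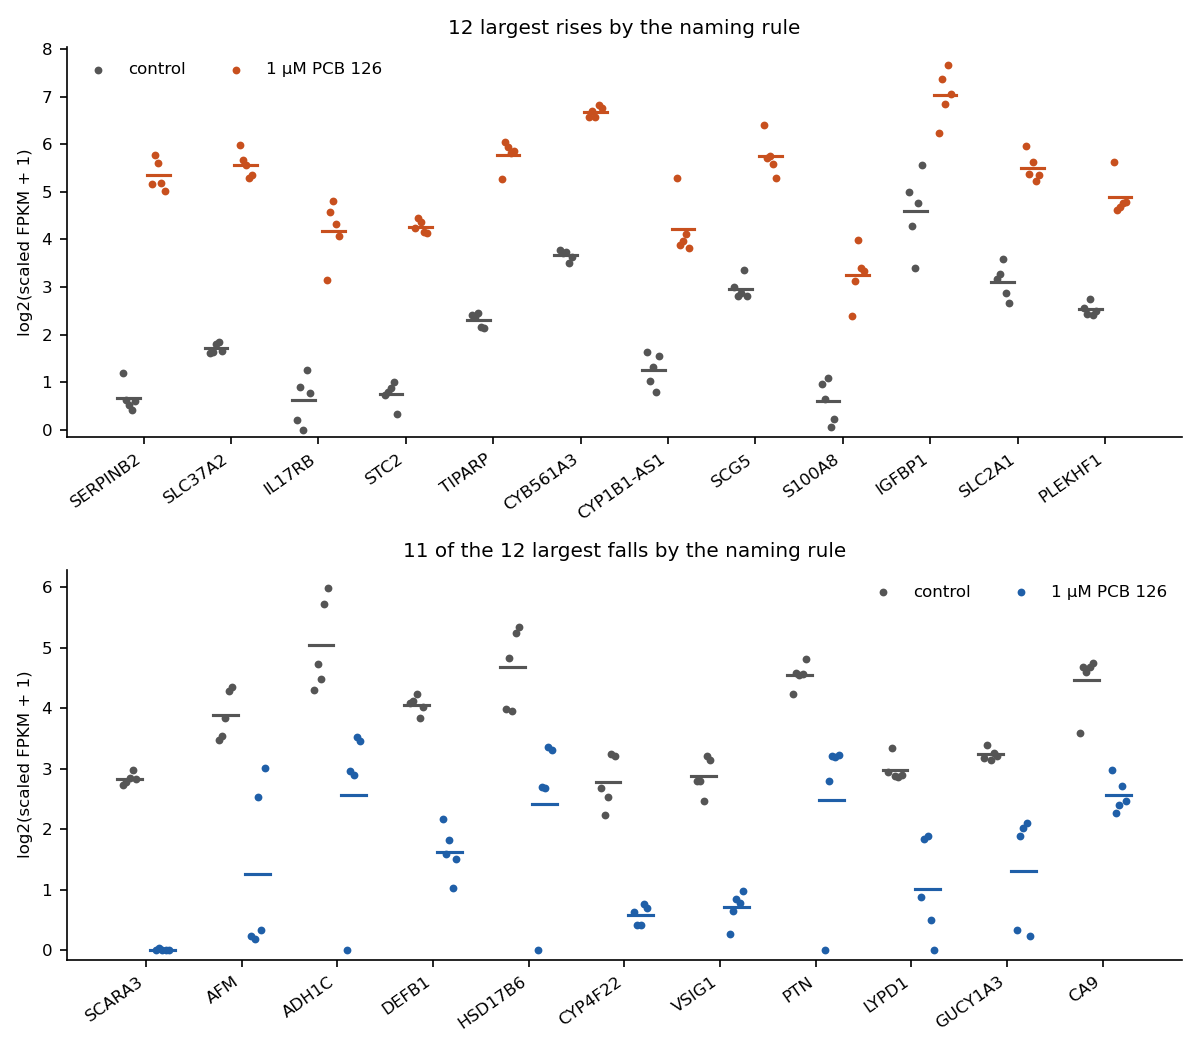
The 12 largest rises (upper panel) and 11 of the 12 largest falls (lower panel) outside the genes named by the study, as log2(scaled FPKM + 1) in each library, with 1 point per library (5 control in grey, 5 at 1 µM PCB 126 in colour) and a bar at the mean. No gene has overlapping groups, which the choice of genes required, and 1 treated library of ADH1C, HSD17B6 and PTN lies far below the other 4.

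The largest falls were chosen in the same way. SCARA3, a scavenger receptor of class A, was at 5.63, 5.90, 6.20, 6.88 and 6.11 scaled FPKM in the control libraries and was listed at 0 in 4 of the 5 libraries at 1 µM and at 0.0295 in replicate 2. Its log2 fold change of -2.83 (SE 0.53) became -1.20 when unnamed assembled transcripts of the same locus were added to the gene, which the values above leave out. AFM, the vitamin E-binding plasma protein afamin, was at 10.1, 10.6, 13.4, 18.4 and 19.3 in the control and at 0.178, 0.139, 4.82, 0.268 and 7.03 at 1 µM. Its treated libraries ranged from near 0 to 7.03, all below the control (log2 fold change -2.63, SE 0.64, adjusted p = 0.0112). DEFB1, the epithelial antimicrobial peptide beta-defensin 1, was at 15.9, 16.3, 17.9, 13.3 and 15.3 in the control and at 3.52, 2.02, 2.53, 1.04 and 1.85 at 1 µM. Both groups were tight and apart, with a log2 fold change of -2.43 (SE 0.30, adjusted p = 3.82e-05). CYP4F22, a cytochrome P450 that hydroxylates very long chain fatty acids, was at 5.45, 3.70, 4.78, 8.45 and 8.22 in the control and at 0.554, 0.341, 0.340, 0.706 and 0.626 at 1 µM. VSIG1, a junctional membrane protein of the immunoglobulin family, was at 5.96, 5.98, 4.53, 8.30 and 7.86 in the control and at 0.207, 0.579, 0.797, 0.728 and 0.980 at 1 µM. For both, every treated value was under 1 scaled FPKM, with log2 fold changes of -2.19 and -2.18. With a pseudocount of 0.1, that of CYP4F22 was -3.32, that of SCARA3 -5.89 and that of LYPD1, described below, -3.10.

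For 3 of the largest falls, replicate 1 of the 1 µM group was at or near 0 while the other 4 treated libraries stood between it and the control. ADH1C, an alcohol dehydrogenase, was at 18.7, 25.5, 21.5, 51.9 and 62.5 scaled FPKM in the control libraries and at 0, 6.80, 6.46, 10.6 and 10.0 at 1 µM. HSD17B6, a dehydrogenase of androgens and retinol, was at 14.9, 27.5, 14.6, 37.0 and 39.7 in the control and at 0, 5.50, 5.43, 9.25 and 8.97 at 1 µM. PTN, the growth factor pleiotrophin, was at 17.9, 22.9, 22.3, 22.8 and 27.3 in the control and at 0, 5.96, 8.24, 8.19 and 8.32 at 1 µM. All 3 genes stayed lower without replicate 1: the log2 fold changes went from -2.47 to -1.83 in ADH1C, from -2.26 to -1.66 in HSD17B6 and from -2.07 to -1.44 in PTN. In a fit of only the 10 libraries, ADH1C, HSD17B6 and PTN no longer passed, with adjusted p = 0.0585, 0.0631 and 0.0652. ADH1C has near-identical neighbours in its gene cluster, so its share of their reads is uncertain.

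Of the last 3, LYPD1, a GPI-anchored membrane protein, was at 6.73, 9.14, 6.40, 6.24 and 6.44 scaled FPKM in the control libraries and at 0.841, 2.59, 2.71, 0.410 and 0 at 1 µM, and its call was lost (adjusted p = 0.0564) without control replicate 5 and 1 µM replicates 1 and 5, the 3 libraries with the most multiply aligned read pairs. GUCY1A3, a subunit of the soluble guanylate cyclase that senses nitric oxide, was at 8.04, 9.47, 7.84, 8.62 and 8.26 in the control and at 0.260, 2.72, 3.08, 3.28 and 0.173 at 1 µM. The latter stayed called without these 3 libraries, with a log2 fold change of -1.24 in place of -1.92. CA9, a membrane carbonic anhydrase and classical hypoxia target, was at 11.05, 24.8, 23.3, 24.6 and 25.96 in the control and at 6.89, 3.83, 4.29, 5.58 and 4.56 at 1 µM. Control replicate 1 lay nearest to the treated libraries and still above them (log2 fold change -1.89, SE 0.34, adjusted p = 0.00127).

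The AhR list held 11 tested genes, of which 6 were higher and none lower, with a median log2 fold change of 1.52 against -0.01 over all genes. Besides the P450 genes and TIPARP, ALDH3A1, an aldehyde dehydrogenase known as an AhR target, was at 104, 100.4, 134, 94.6 and 95.4 scaled FPKM in the control libraries and at 695, 415, 386, 510.5 and 501 at 1 µM. The other 5 members, the receptor gene AHR among them, did not pass. AHR was at 51.7, 59.7, 51.5, 59.9 and 63.0 in the control and at 20.6, 55.8, 47.2, 48.4 and 49.6 at 1 µM, where replicate 1 stood far below the rest, and its log2 fold change of -0.43 (SE 0.18, adjusted p = 0.149) became -0.18 without that library. The 6 calls were also made without scaling. The antioxidant targets of NRF2 numbered 18, of which 4 were higher and 1 lower (0 and 0 without scaling), with a median of 0.28. SRXN1, which repairs oxidised peroxiredoxins, went from 48.4, 43.9, 44.5, 54.9 and 49.2 in the control to 92.3, 72.5, 70.7, 85.6 and 69.9 at 1 µM, a small change with no overlap (log2 fold change 0.68, SE 0.11). SLC7A11, the cystine importer, was at 10.5, 11.98, 8.74, 11.6 and 9.52 in the control and at 11.9, 23.3, 17.8, 19.3 and 19.7 at 1 µM, and its groups overlapped in replicate 1 only. Without scaling, SRXN1 and SLC7A11 had an adjusted p of 0.519 and 0.520.

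Other enzymes of drug metabolism moved in both directions. Of 17 further cytochromes P450, 3 were higher and 2 lower (0 and 1 without scaling). CYP2C8, which clears many drugs, was at 21.8, 23.5, 31.3, 34.5 and 30.0 scaled FPKM in the control libraries and at 5.01, 9.33, 11.5, 12.1 and 12.04 at 1 µM, a log2 fold change of -1.44 (SE 0.25, adjusted p = 7.38e-04). CYP2B6, the classical target of the receptor CAR, was at 1.45, 0.577, 2.85, 1.70 and 1.89 in the control and at 2.59, 8.04, 10.3, 10.3 and 9.03 at 1 µM. Its replicate 1 overlapped with the control while the other 4 treated values were above it, and the call was lost without scaling (adjusted p = 0.0677). Of 26 conjugating enzymes, 2 were higher and 2 lower (1 and 2 without scaling), and all 4 were UDP-glucuronosyltransferases. The share called in this list, 15.4%, was near the 11.1% over all genes. UGT1A1, which conjugates bilirubin, was at 61.04, 72.6, 64.0, 40.98 and 41.3 in the control and at 199, 251, 231, 333 and 252 at 1 µM. UGT1A3 shares its last exons with UGT1A1 and stood at 1.10, 1.55, 1.52, 0.566 and 1.08 in the control and at 2.65, 3.93, 3.25, 3.45 and 4.05 at 1 µM, so the split of reads between the pair is uncertain. UGT1A3 did not pass without scaling (adjusted p = 0.102). UGT2B11, a relative on chromosome 4, fell from 3.19, 6.26, 5.23, 8.43 and 8.06 in the control to 0.329, 1.57, 1.21, 1.94 and 2.24 at 1 µM (log2 fold change -1.56, SE 0.28), and UGT2A3 had a log2 fold change of -0.95 (SE 0.14).

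Among 23 aldehyde and alcohol dehydrogenases, 4 were higher and 4 lower (2 and 3 without scaling), with ADH1C among the lower, as given above, and ALDH1A3 and ALDH3A1 among the higher. ALDH3A2, the fatty aldehyde dehydrogenase, rose from 111, 111, 148, 138 and 124 scaled FPKM in the control to 195, 218, 166, 199.6 and 234 at 1 µM (log2 fold change 0.67, SE 0.13, with an adjusted p of 0.521 without scaling). Of 19 hepatic transporters, 4 were higher and 2 lower (2 and 1 without scaling). ABCG2, an efflux pump for drugs and urate, was at 0.0854, 0.351, 0.579, 0.895 and 0.233 in the control and at 4.15, 6.01, 5.45, 4.36 and 2.88 at 1 µM, a gap between the groups that is wide for so low a level. SLCO1B1, the uptake carrier for bilirubin and statins, moved the other way, from 13.3, 10.1, 8.31, 16.7 and 13.3 in the control to 1.28, 4.20, 3.36, 6.36 and 3.63 at 1 µM, with log2 fold changes of 1.96 and -1.55 for the pair. With a pseudocount of 0.1, that of ABCG2 was 3.33. SLC47A1, an exporter of organic cations, went from 7.48, 8.01, 7.56, 8.58 and 6.50 in the control to 15.9, 14.1, 14.7, 15.5 and 14.4 at 1 µM, and its call did not hold without scaling (adjusted p = 0.3003).

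**Figure D3:**
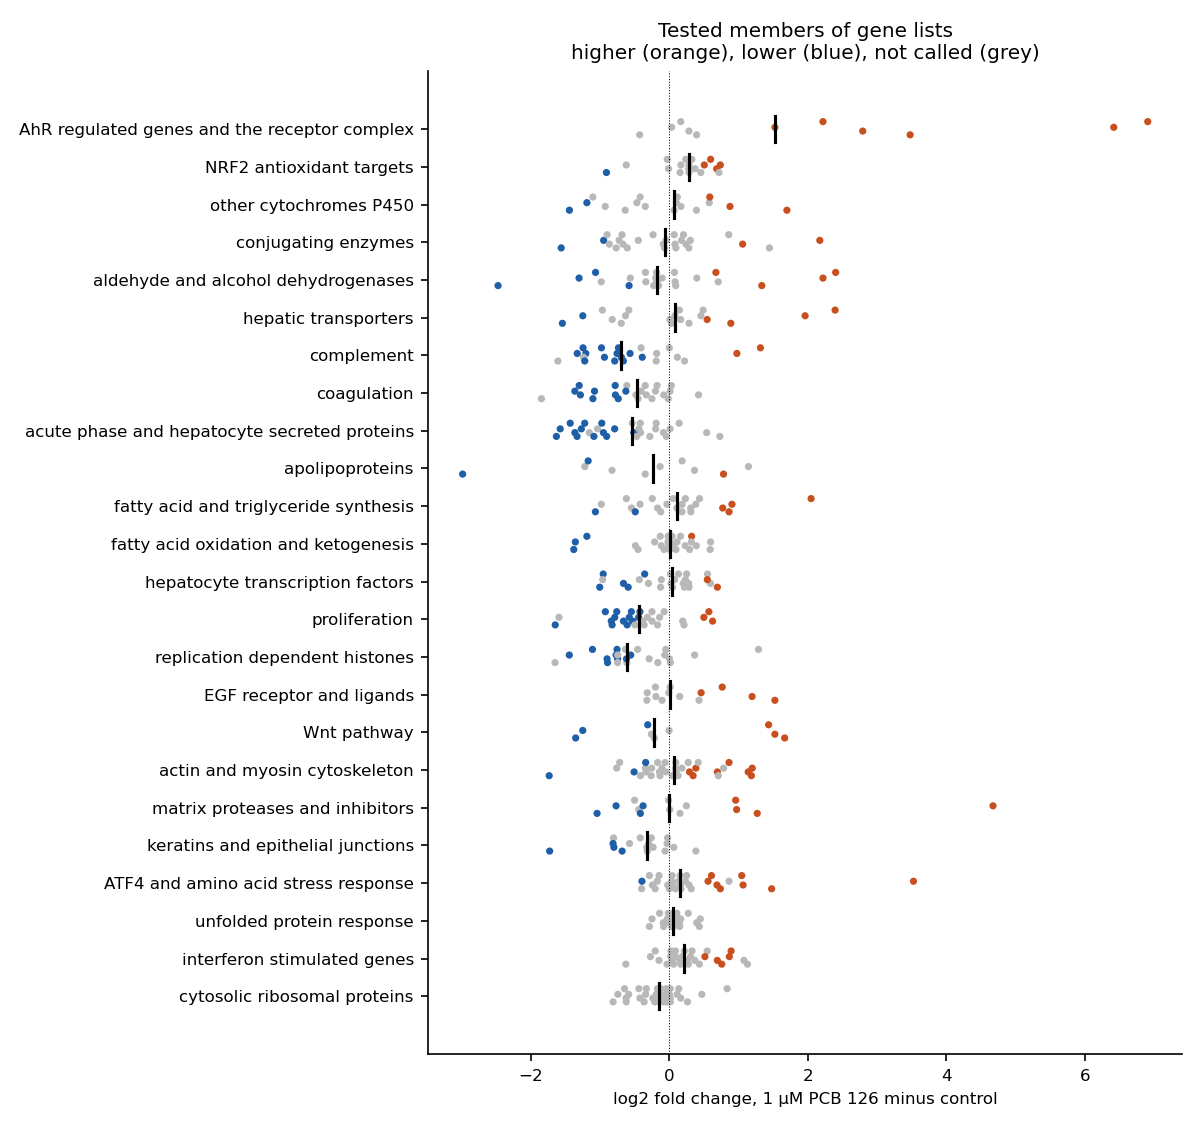
Log2 fold change at 1 µM PCB 126 (horizontal axis) of every tested member of 24 gene lists (vertical axis), with genes called higher in orange, lower in blue and not called in grey, and the median of each list as a black bar. The AhR list has its median at 1.52, whereas complement, coagulation, secreted proteins, proliferation and histones lie to the left of 0.

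Part of the plasma proteins that hepatocytes secrete were lower, in 3 lists that share no member. Of 29 acute phase and other secreted proteins, 13 were lower, none higher and 16 not called (8 lower and 0 higher without scaling), with a median log2 fold change of -0.54. Of 24 coagulation genes, 9 were lower, none higher and 15 not called (5 lower and 0 higher without scaling), with a median of -0.47. Of 23 complement genes, 13 were lower and 2 higher (2 and 0 without scaling), with a median of -0.69 against -0.01 over all genes, so most of the complement calls depend on the scaling. Without control replicate 5 and 1 µM replicates 1 and 5, the lower genes were 9 of the secreted list, 8 of coagulation and 7 of complement. Summed over its members, the secreted list lay between 15603 and 22605 scaled FPKM in the control libraries and between 8901 and 14275 at 1 µM. The complement sum went from 3210 to 3813 in the control to 1712 to 2884 at 1 µM, and coagulation from 4316 to 6908 to 2543 to 4425, where only the coagulation sums overlapped. The summed hepatocyte markers, 4 of which are also in the secreted list, went from 13456 to 19940 in the control to 7394 to 12683 at 1 µM. ALB and SERPINA1 make up most of that sum. ALB is also a large part of the secreted sum, at 8187 to 13502 in the control and 4358 to 7838 at 1 µM. The secreted and hepatocyte marker sums are therefore not separate observations. Of the 14 markers, 4 were lower and 2 higher (2 and 1 without scaling), TAT among the higher, and 8 were not called. Biliary and progenitor markers lay between 475 and 558 in the control and 320 and 506 at 1 µM, with replicate 1 of the latter within the control range. KRT19 was a large part of this sum, at 230 to 327 in the control and 134 to 354 at 1 µM, and was highest in that replicate. Of the 9 tested biliary markers, 2 were higher and 2 lower (0 and 0 without scaling). Mesenchymal markers summed to between 108 and 126 in the control and 124 and 210.5 at 1 µM. That rise was carried by LUM, the matrix proteoglycan lumican, at 44.3, 43.004, 44.6, 49.7 and 38.01 in the control and at 64.4, 149, 137, 128 and 98.0 at 1 µM (adjusted p = 2.97e-04, and 0.180 without scaling). Of the 9 tested mesenchymal markers, 3 were higher and 2 lower (0 and 1 without scaling), with a median log2 fold change of -0.36. In bulk samples, fewer cells of a type and less RNA per cell cannot be told apart, and the part of the cell mixture in these falls was not tested.

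**Figure D4:**
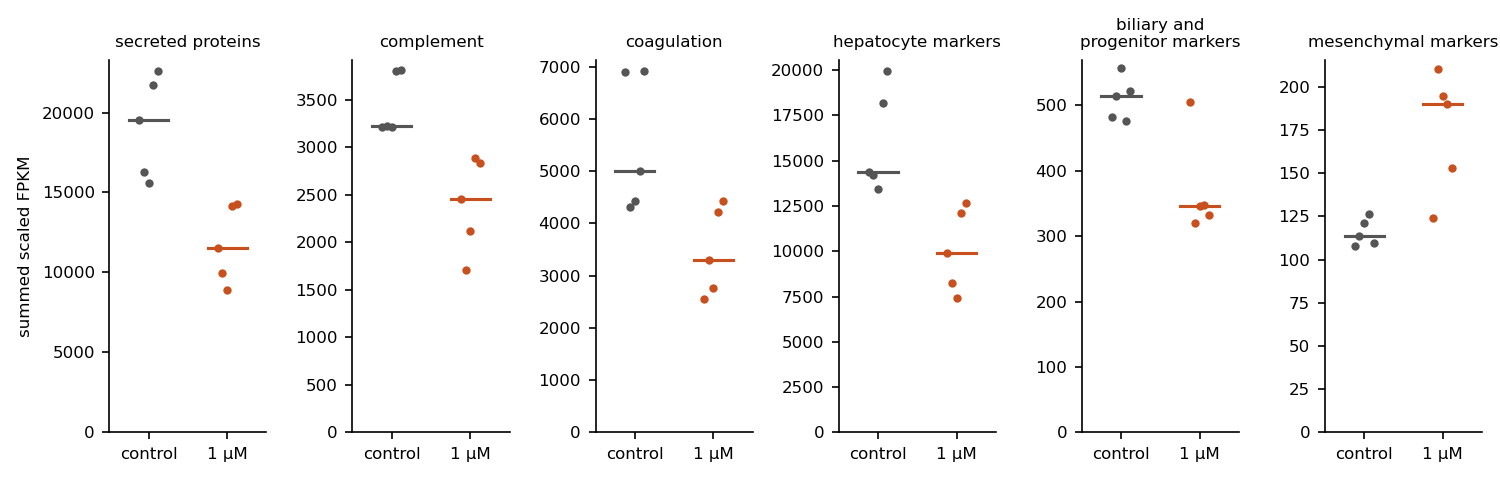
Summed scaled FPKM (vertical axis, from 0) of 6 gene lists in the 5 control libraries (grey) and the 5 libraries at 1 µM PCB 126 (orange), with 1 point per library and a bar at the median. Secreted proteins, complement and hepatocyte markers do not overlap between the groups. ALB is a large part of the secreted and hepatocyte sums, and KRT19 of the biliary sum. The sum of the mesenchymal markers, carried by LUM, is higher in 4 of the 5 treated libraries than in any control library. However, 6 of the 9 tested mesenchymal markers have a negative log2 fold change.

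Single members show the size of these falls. GC, the vitamin D-binding protein, was at 595, 435, 461, 603 and 624 scaled FPKM in the control libraries and at 139, 199.5, 177, 265 and 237 at 1 µM, a log2 fold change of -1.43 (SE 0.18, adjusted p = 4.60e-05). HPX, the haem scavenger hemopexin, was at 248.9, 185, 191, 207 and 233 in the control and at 119.8, 63.7, 59.7, 97.4 and 81.6 at 1 µM. SERPINA7, the thyroxine-binding globulin, was at 66.6, 60.5, 65.8, 86.2 and 93.6 in the control and at 16.6, 29.8, 29.2, 41.4 and 46.7 at 1 µM. The groups of all these genes stood apart. FGB, the fibrinogen beta chain, was at 1776, 1014, 1034, 1535 and 1695 in the control and at 421, 650.4, 575, 829 and 871 at 1 µM. SERPINC1, which encodes antithrombin and so restrains clotting, was at 21.7, 18.2, 22.3, 35.4 and 27.5 in the control and at 7.63, 8.68, 7.15, 13.2 and 10.9 at 1 µM. TFPI2, a protease inhibitor of the tissue factor pathway family, was at 14.4, 12.6, 9.28, 10.97 and 11.4 in the control and at 2.63, 4.64, 4.87, 3.92 and 5.26 at 1 µM. Both clotting factors and their inhibitors were thus among the genes called lower. C5, the complement component at the head of the terminal pathway, was at 46.6, 42.8, 40.8, 50.7 and 56.1 in the control and at 10.99, 20.7, 15.9, 23.04 and 23.03 at 1 µM (log2 fold change -1.33, SE 0.18, adjusted p = 6.83e-05). TTR, the thyroid hormone carrier transthyretin, went from 191, 296, 354, 403 and 422 in the control to 109.6, 109, 127, 153 and 140.2 at 1 µM. ALB had a log2 fold change of -0.79 (SE 0.19, adjusted p = 0.0111), with adjusted p = 0.0563 without scaling, 0.182 after quantile normalization and 0.0597 in the fit of 10 libraries.

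Some lipid and bile acid genes were called, with shares of 13.04% for cholesterol synthesis and 15.4% for fatty acid oxidation, near the 11.1% over all genes, and of 26.1% for fatty acid synthesis, 28.6% for lipid droplets, 30.0% for apolipoproteins and 33.3% for bile acids. Of 23 genes of fatty acid and triglyceride synthesis, 4 were higher and 2 lower (1 and 0 without scaling). GPAM, the first enzyme of triglyceride synthesis, was at 1.12, 0.387, 1.09, 1.55 and 1.36 scaled FPKM in the control libraries and at 14.4, 6.32, 4.68, 5.10 and 10.5 at 1 µM, with a log2 fold change of 2.05 (SE 0.35, adjusted p = 8.51e-04). ACSL5, which activates fatty acids, was at 19.9, 19.1, 22.8, 17.8 and 18.2 in the control and at 32.5, 39.4, 37.7, 36.6 and 35.3 at 1 µM, a change that did not pass without scaling (adjusted p = 0.386). Of 26 genes of fatty acid oxidation and ketogenesis, 1 was higher and 3 lower (0 and 2 without scaling). PPARGC1A, the coactivator of mitochondrial and fasting genes, was at 6.15, 5.95, 6.92, 3.73 and 5.61 in the control and at 1.12, 1.72, 1.68, 1.91 and 1.47 at 1 µM. Its log2 fold change was -1.36 (SE 0.16), with no overlap between the groups. Of 9 bile acid genes, 1 was higher and 2 lower (0 and 2 without scaling). The lower ones were BAAT, which joins bile acids to glycine or taurine, and NR1H4, the bile acid receptor FXR, at -0.99 (SE 0.17) and -0.96 (SE 0.17). The higher one was CYP27A1, a sterol hydroxylase, at 0.87 (SE 0.17, adjusted p = 0.276 without scaling). Of 10 apolipoproteins, 1 was higher and 2 lower (0 and 1 without scaling), and of 14 genes of lipid droplets, lipases and lipid uptake, 1 was higher and 3 lower (0 and 0 without scaling). For LPL, lipoprotein lipase, the values were 4.79, 5.82, 6.01, 5.90 and 7.10 in the control and 2.82, 3.47, 3.23, 3.37 and 3.98 at 1 µM, with a log2 fold change of -0.66 and an adjusted p of 0.0542 without scaling. Cholesterol synthesis had 3 of 23 genes higher and none lower (0 and 0 without scaling).

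In amino acid metabolism, 3 of 31 genes of amino acid breakdown and the urea cycle were higher and 3 lower (1 and 1 without scaling). TAT, which starts tyrosine breakdown, was at 0.667, 0.490, 0.453, 0.528 and 0.688 scaled FPKM in the control libraries and at 3.96, 3.64, 2.76, 5.09 and 4.31 at 1 µM (log2 fold change 1.65, SE 0.24, adjusted p = 1.42e-04, and 2.59 with a pseudocount of 0.1). CPS1, the entry enzyme of the urea cycle, was at 4.09, 5.15, 8.99, 5.55 and 5.76 in the control and at 1.43, 2.85, 2.65, 2.56 and 3.03 at 1 µM. Both are hepatocyte markers, and they moved in opposite directions. Cysteine and taurine metabolism had 3 of 11 genes higher and 1 lower (1 and 1 without scaling). CTH, which makes cysteine from cystathionine, was at 3.33, 2.64, 2.50, 2.85 and 3.45 in the control and at 8.89, 13.6, 12.5, 12.9 and 12.5 at 1 µM. SLC6A6, the taurine transporter, was at 10.9, 10.6, 11.03, 10.3 and 10.4 in the control and at 16.9, 19.6, 20.0, 18.9 and 19.9 at 1 µM, a narrow shift with a log2 fold change of 0.78 (SE 0.08) that became 0.51 and did not pass without scaling (adjusted p = 0.423). UGCG, the enzyme that makes glucosylceramide, was at 19.5, 18.5, 15.3, 16.1 and 15.9 in the control and at 63.8, 75.1, 69.0, 65.1 and 65.0 at 1 µM, a log2 fold change of 1.93 (SE 0.18, adjusted p = 3.93e-06). It led the 21 sphingolipid enzymes, of which 3 were higher and none lower (1 and 0 without scaling). The share called in this list, 14.3%, was near the 11.1% over all genes.

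The targets of ATF4, the transcription factor of amino acid and other integrated stress, had 8 of 30 genes higher and 1 lower (1 and 0 without scaling), with a median log2 fold change of 0.16. STC2 led them. ATF3 was at 8.52, 4.76, 5.28, 6.07 and 5.76 scaled FPKM in the control libraries and at 9.64, 15.3, 14.1, 13.4 and 15.3 at 1 µM. PPP1R15A, the phosphatase subunit that ends the stress signal, was at 12.3, 8.93, 9.38, 8.83 and 9.28 in the control and at 35.7, 19.1, 20.0, 18.9 and 16.9 at 1 µM. Neither overlapped between groups (log2 fold changes 1.05 and 1.06), and neither passed without scaling (adjusted p = 0.232 and 0.190). Of 22 genes of the unfolded protein response, limma called 0, with 1 at an unadjusted p under 0.05. Of 35 cytosolic ribosomal protein genes it called 0, with 8 at an unadjusted p under 0.05, and of 13 mitochondrially encoded genes 0, with 0 at an unadjusted p under 0.05. The mitochondrial genes had a median log2 fold change of -0.65, and of -0.19 without replicate 1 of the 1 µM group. Their sum was 615 scaled FPKM in that library and 1456 to 2396 in the others at 1 µM. The absence of calls therefore does not show that these genes were unchanged. Glycolysis and hypoxia targets were split, with 6 of 24 higher and 3 lower (1 and 2 without scaling). SLC2A1 rose and CA9 fell, as given above. VEGFA, the vascular growth factor, was at 11.9, 11.7, 10.99, 12.4 and 8.80 in the control and at 19.4, 18.7, 21.6, 18.0 and 13.4 at 1 µM. PFKFB3, an activator of glycolysis, was at 20.0, 24.5, 22.8, 20.3 and 24.3 in the control and at 15.6, 8.22, 8.31, 7.66 and 7.62 at 1 µM. VEGFA had a log2 fold change of 0.65 (adjusted p = 0.563 without scaling) and PFKFB3 one of -1.20 (SE 0.19). Gluconeogenesis and glycogen had 1 of 10 genes higher and none lower (0 and 0 without scaling), a share of 10.0% against 11.1% over all genes.

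Part of the cell cycle genes were lower, and 3 inhibitors of the cycle were higher. Of 28 proliferation genes, 13 were lower and 3 higher, with a median log2 fold change of -0.43, but only 1 and 0 were called without scaling. CENPF, a kinetochore protein, was at 6.33, 7.01, 5.94, 7.499 and 8.28 scaled FPKM in the control libraries and at 1.98, 3.24, 3.19, 3.26 and 4.80 at 1 µM, a log2 fold change of -0.93 (SE 0.14, adjusted p = 3.24e-04). TOP2A, the topoisomerase of dividing cells, was at 24.5, 22.6, 17.1, 22.99 and 18.5 in the control and at 10.5, 11.6, 9.56, 14.8 and 14.0 at 1 µM. The 3 higher members were the cyclin-dependent kinase inhibitors CDKN1A, CDKN1B and CDKN2B, the last with a log2 fold change of 0.50 (SE 0.11, adjusted p = 0.00442, and 0.657 without scaling). CDKN1A was at 139, 129.9, 140.1, 122 and 128 in the control and at 271, 191, 190.2, 192 and 183 at 1 µM. CDKN1B was at 6.09, 6.37, 5.41, 6.19 and 5.71 in the control and at 8.24, 10.8, 8.30, 9.70 and 9.71 at 1 µM, and neither inhibitor overlapped between the groups. TOP2A, CDKN1A and CDKN1B did not pass without scaling (adjusted p = 0.0819, 0.578 and 0.591). Of 23 replication-dependent histone genes, 9 were lower and none higher, with a median of -0.62, but 0 and 0 without scaling. HIST1H2AE was at 57.4, 37.6, 36.3, 36.1 and 34.3 in the control and at 18.7, 20.7, 21.4, 18.8 and 24.7 at 1 µM (adjusted p = 0.00191, and 0.0661 without scaling). These genes are near-identical copies, so single members are uncertain.

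Signalling genes showed a few large and well separated changes. In the Wnt pathway, 3 of 9 tested genes were higher and 3 lower (3 and 2 without scaling). WNT7B, a ligand, was at 3.19, 2.70, 2.68, 2.71 and 2.30 scaled FPKM in the control libraries and at 10.3, 10.6, 10.8, 8.45 and 8.44 at 1 µM. The receptor FZD7 was at 0.703, 0.943, 0.743, 1.02 and 0.892 in the control and at 7.25, 3.80, 2.93, 3.60 and 3.42 at 1 µM. The co-receptor LRP5 was at 14.5, 16.6, 18.7, 15.2 and 17.7 in the control and at 63.0, 51.3, 52.2, 53.8 and 52.7 at 1 µM. None of these 3 genes had overlapping groups. DKK1, a secreted inhibitor that binds the co-receptor, was at 15.4, 15.6, 15.1, 14.6 and 14.8 in the control and at 6.79, 5.72, 5.00, 5.49 and 3.89 at 1 µM. These 3 were higher, at log2 fold changes of 1.52, 1.43 and 1.67, and DKK1 was lower, at -1.35. The other 2 lower members, named after their values were seen, were SFRP2, another secreted inhibitor, at -1.25 (SE 0.20, adjusted p = 4.72e-04), and FZD6, another receptor, at -0.31 (SE 0.10, adjusted p = 0.0420, and 0.401 without scaling). The call of FZD6 was lost in 4 of the 12 alternative settings and without any 1 of 6 libraries. Over the list, 6 of 9 members were negative and the median was -0.22. Of 13 genes of the EGF receptor and its ligands, 4 were higher and none lower (2 and 0 without scaling). The ligand AREG was at 1.27, 0.807, 1.00, 1.36 and 1.16 in the control and at 4.44, 3.44, 3.46, 4.07 and 3.81 at 1 µM. EREG, another ligand and also a member of the AhR list, was at 1.31, 0.927, 0.764, 0.866 and 1.10 in the control and at 2.04, 6.46, 4.99, 5.49 and 5.88 at 1 µM. Replicate 1 was its lowest treated library. TGFA, a further ligand, was at 7.22, 6.17, 6.57, 4.98 and 6.27 in the control and at 17.0, 10.4, 10.6, 10.7 and 8.79 at 1 µM. EGFR, the receptor, was at 23.6, 25.8, 24.2, 23.3 and 26.1 in the control and at 49.6, 32.2, 32.04, 29.0 and 31.2 at 1 µM. The last pair did not pass without scaling (adjusted p = 0.403 and 0.756), nor did EGFR in the fit of 10 libraries (adjusted p = 0.101).

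In the insulin-like growth factor axis, 2 of 13 genes were higher and 1 lower (1 and 1 without scaling), and all 3 were binding proteins. IGFBP5 was at 3.42, 8.45, 11.7, 6.03 and 6.26 scaled FPKM in the control libraries and at 0.968, 2.05, 2.04, 1.70 and 1.62 at 1 µM, opposite in direction to IGFBP1, and IGFBP3 had a log2 fold change of 0.87 (adjusted p = 0.331 without scaling). Of 15 YAP and TEAD targets, 4 were higher and 2 lower (0 and 1 without scaling). CTGF and CYR61, both secreted proteins bound to matrix, went in opposite directions. CTGF was at 22.9, 24.05, 25.98, 23.2 and 22.02 in the control and at 18.2, 6.95, 10.4, 11.5 and 11.4 at 1 µM. CYR61 was at 44.6, 32.8, 31.9, 27.8 and 31.3 in the control and at 77.6, 60.1, 107, 59.8 and 62.7 at 1 µM. CYR61 did not pass without scaling (adjusted p = 0.3003). Of 17 genes of the TGF-beta and BMP pathway, 4 were higher and 1 lower (0 and 0 without scaling), with FST, the activin antagonist follistatin, at 0.86 (SE 0.14, adjusted p = 0.354 without scaling). Of 5 Notch genes, 1 was lower (0 without scaling), the ligand JAG1, at -0.69 (SE 0.15, adjusted p = 0.0715 without scaling). Among 25 hepatocyte transcription factors, 2 were higher and 5 lower (0 and 2 without scaling). FOXA1, a pioneer factor of liver development, was at 5.95, 7.43, 6.55, 6.44 and 8.17 in the control and at 1.83, 3.08, 3.09, 3.501 and 3.35 at 1 µM, a log2 fold change of -1.01 (SE 0.16, adjusted p = 3.87e-04).

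Matrix and cytoskeleton genes were also changed, mostly one by one. Of 14 matrix proteases and inhibitors, 4 were higher and 4 lower (1 and 1 without scaling). Apart from SERPINB2, the higher ones included MMP2, a gelatinase, at 5.92, 6.57, 6.34, 8.48 and 6.59 scaled FPKM in the control libraries and 18.5, 16.4, 18.9, 18.96 and 15.7 at 1 µM. MMP2 did not pass without scaling (adjusted p = 0.0685). Of 25 other matrix proteins, 4 were higher and 3 lower (1 and 1 without scaling). CEMIP, which degrades hyaluronan, was at 11.6, 11.7, 13.7, 9.54 and 10.5 in the control and at 57.6, 60.1, 51.5, 54.7 and 48.0 at 1 µM, a log2 fold change of 2.16 (SE 0.26, adjusted p = 3.49e-05). SPP1, osteopontin, was at 41.3, 41.9, 41.9, 43.5 and 42.9 in the control and at 23.9, 23.9, 20.4, 24.7 and 25.1 at 1 µM, with very little spread in either group. Its log2 fold change was -0.82, with an adjusted p of 0.0619 without scaling. Of 10 collagens, 3 were higher and 1, COL3A1, was lower (0 and 1 without scaling). Of 26 genes of glycosaminoglycan synthesis, 5 were higher and 2 lower (0 and 1 without scaling), with GPC6, a glypican, at 6.66, 6.61, 7.42, 6.48 and 7.37 in the control and 2.00, 2.94, 2.60, 3.09 and 2.83 at 1 µM.

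Of 34 genes of the actin and myosin cytoskeleton, 8 were higher and 3 lower (0 and 1 without scaling). MYH9, the non-muscle myosin heavy chain, was at 83.7, 109, 109, 87.1 and 95.3 scaled FPKM in the control libraries and at 281, 226, 217, 198 and 198 at 1 µM. ACTB, the beta-actin often used as a reference gene, was at 514, 448, 533, 549 and 601 in the control and at 1274, 951, 916, 873 and 833 at 1 µM, with no overlap. Their log2 fold changes of 1.20 and 0.86 became 0.91 and 0.57 without scaling and did not pass (adjusted p = 0.104 and 0.330). CAV1, the caveolar coat protein, went the other way, from 110.1, 142, 197, 155 and 152 in the control to 19.6, 56.7, 58.6, 50.4 and 49.3 at 1 µM (log2 fold change -1.74, SE 0.25, adjusted p = 1.42e-04). Of 17 keratins and junction genes, 4 were lower and none higher (2 and 0 without scaling). KRT14, a basal keratin, was at 3.03, 2.35, 3.58, 2.09 and 3.65 in the control and at 0.511, 0, 0.0376, 0.307 and 0.0789 at 1 µM. PPL, the desmosomal linker periplakin, was at 29.9, 38.3, 44.9, 45.6 and 49.2 in the control and at 23.7, 20.8, 23.8, 24.4 and 21.9 at 1 µM. Their log2 fold changes were -1.73 (SE 0.25), which was -3.70 with a pseudocount of 0.1, and -0.81 (SE 0.14).

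Genes of antigen presentation and of the interferon response had 5 of 29 members higher and none lower (0 and 0 without scaling), with a median log2 fold change of 0.22. The share called in this list was 17.2%, against 11.1% over all genes. The peptide transporter TAP1 was at 10.5, 8.79, 7.36, 7.55 and 8.86 scaled FPKM in the control libraries and at 28.2, 13.2, 13.4, 19.2 and 13.6 at 1 µM, where replicate 1 was the highest. Without replicate 1 its log2 fold change was 0.71 in place of 0.89, and without scaling the adjusted p was 0.305. Inflammatory chemokines and cytokines had 1 of 19 genes higher and 3 lower (0 and 0 without scaling). CX3CL1, a membrane-bound chemokine, was at 9.04, 11.4, 12.4, 10.4 and 12.1 in the control and at 6.84, 6.87, 6.40, 5.95 and 6.10 at 1 µM (log2 fold change -0.69, adjusted p = 0.0638 without scaling). Of 12 retinoid genes, 3 were higher and 1 lower (1 and 0 without scaling). Next to ALDH1A3, DHRS3, which reduces retinal to retinol, was at 19.7, 19.3, 20.3, 22.02 and 23.3 in the control and at 58.97, 36.3, 38.5, 34.9 and 35.2 at 1 µM, and the receptor RARA had a log2 fold change of -0.67 (SE 0.15). DHRS3 and RARA did not pass without scaling (adjusted p = 0.258 and 0.0985). Of 20 genes of haem and iron, 1 was higher and 2 lower (1 and 0 without scaling), a share of 15.0% against 11.1% over all genes. SLC40A1, the iron exporter ferroportin, was at 61.4, 55.4, 53.6, 38.5 and 65.2 in the control and at 27.4, 35.6, 29.4, 41.3 and 39.9 at 1 µM, with adjusted p = 0.112 without scaling and 0.0584 in the fit of 10 libraries. Of 5 genes of steroid and thyroid hormone metabolism only HSD17B6 was called (also without scaling), and of 7 metallothionein and zinc genes 1 was lower (0 without scaling).

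Replicate 1 of the 1 µM group moved the counts of many lists, and not all of them are given here. Without it, the higher and lower genes were 6 and 0 among the NRF2 targets, 3 and 1 among the further P450 genes, 2 and 2 in bile acid synthesis and 0 and 1 in cholesterol synthesis. They were 4 and 1 in amino acid breakdown, 3 and 0 in gluconeogenesis, 2 and 3 in the insulin-like growth factor axis and 3 and 2 in the TGF-beta pathway. They were 1 and 1 among the chemokines, 3 and 2 in haem and iron and 4 and 4 among the hepatocyte transcription factors. They were 8 and 2 among the ATF4 targets, 3 and 1 among the sphingolipid enzymes and 0 and 1 among the ribosomal protein genes. The proliferation list had 3 and 10, the replication-dependent histones 0 and 12 and the actin and myosin list 10 and 4. The AhR list kept its counts of 6 and 0, the complement list had 2 and 10, coagulation 0 and 10 and the secreted list 0 and 11.

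Some genes called in the same direction lay next to each other. With a distance of at most 50 kb between called genes of 1 direction, 109 of the 546 raised genes fell into 49 groups and 82 of the 539 lowered genes into 34 groups, and the share that any gene order would give was not computed. The groups below were chosen after their values were seen. CYB561A3 belonged to a group of 5 raised genes on chromosome 11 (GRCh38, 61258286 to 61369509), among them VWCE, at a log2 fold change of 2.02, and TMEM138, at 1.49. CTH belonged to a group of 4 on chromosome 1 (70260588 to 70439851) with ANKRD13C and HHLA3 among them, at 1.40 and 2.28. Overlapping genes can share reads there, and whether they did was not tested. IL17RB stood next to CHDH, a choline dehydrogenase gene with a log2 fold change of 1.24 (adjusted p = 0.00277, and 0.145 without scaling), and IGFBP1 stood next to IGFBP3. Among the lowered genes, a group of 3 on chromosome 3 (186612923 to 186743954) held AHSG and HRG, which encode related plasma proteins of the cystatin family, at log2 fold changes of -1.58 and -1.37.

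The 2 lower concentrations shared the 5 control libraries with this comparison, so their values are set side by side and not compared as independent results. At 10 nM, 101 genes were higher (1.04%) and 54 lower (0.554%), together 155 (1.59%), of which 149 were also called at 1 µM. At 100 pM limma called 0 genes (0.00%), with 236 at an unadjusted p under 0.05. The 100 pM libraries were split in CYP1A1, at 68.3, 28.1, 2.53, 0.844 and 333 scaled FPKM in replicates 1 to 5. The study, which tested transcripts, reported isoforms of CYP1A1 as raised from this concentration, so the absence of calls here does not show that no gene responded. SERPINB2 had log2 fold changes of 0.87 at 100 pM, 3.11 at 10 nM and 4.68 at 1 µM. For SLC37A2 these were 0.87, 2.47 and 3.86, and for STC2 0.72, 2.42 and 3.53. CYP1A1 and CYP1A2 had values at 10 nM, 7.04 and 6.93, above those at 1 µM, 6.91 and 6.42, by less than 1 SE. The falls of DEFB1 were -0.22, -1.49 and -2.43, and those of APOA2 went from 0.06 at 100 pM to -1.16 and -2.99. Of the genes called at 1 µM, 532 of 546 raised and 528 of 539 lowered genes had the larger change at 1 µM, as the choice of genes by that contrast favours.

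A direct test of 1 µM against 10 nM called 1 gene of 9755 (0.0103%), with 1441 at an unadjusted p under 0.05. The same test gave 0 to 26 genes under the other settings, and 0 without any 1 of the control libraries, so the single call was lost with each of them left out. For the other genes, a difference between 10 nM and 1 µM was not shown by this test, which does not show that the 2 concentrations act alike. SERPINB2, for one, differed by 1.56 between them (SE 0.44, adjusted p = 0.182).

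**Figure D5:**
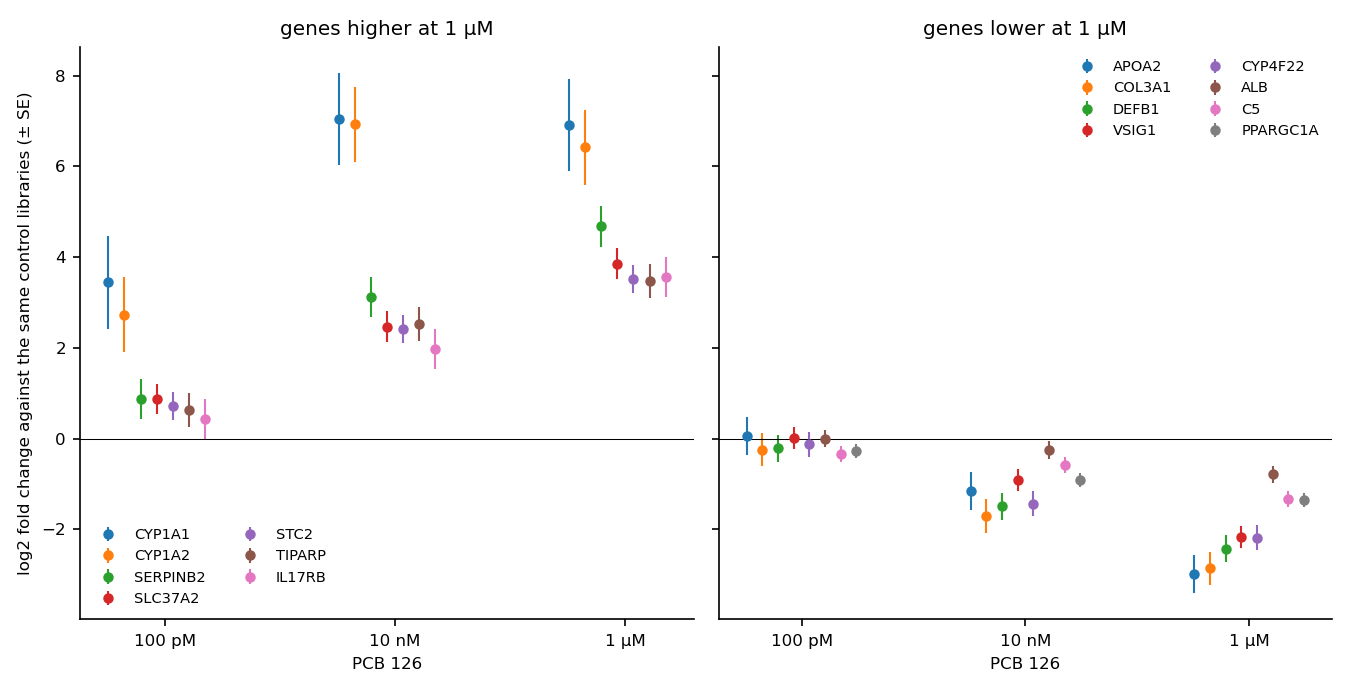
Log2 fold change against the same 5 control libraries (vertical axis, point with its standard error as a bar) of 7 genes higher and 8 genes lower at 1 µM, at 100 pM, 10 nM and 1 µM PCB 126 (horizontal axis). CYP1A1 and CYP1A2 are at 7.04 and 6.93 at 10 nM and at 6.91 and 6.42 at 1 µM, whereas the other genes shown are farthest from 0 at 1 µM.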

How the data were processed

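RNA of differentiated HepaRG cells was sequenced by the authors from ribosomal RNA-depleted, directional libraries. Per the submitters' processing notes and the study's methods, HISAT2 placed the reads on GRCh38, and StringTie built the transcripts and their abundances from an Ensembl annotation of that build. The deposited values are FPKM per transcript, with no filter and no scaling between libraries. In the columns recorded as a score, the deposited values were FPKM with single entries a few millionths below 0, 4 in all, which were set to 0.

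Named transcripts were summed to 56568 gene names with Python 3.11.15, pandas 2.3.3 and numpy 2.4.6. Transcripts without a name, 12.6% to 29.7% of the FPKM of a library, were left out. Genes with a variance of FPKM above 1 over the 20 libraries were kept (9755). Each library was divided by the median of its ratios to the geometric mean over 9342 genes above 0 in all 20. Log2(scaled FPKM + 1) was fitted with limma 3.58.1 in R 4.3.3 over the 20 libraries, which share one estimate of the spread, and p-values were adjusted over all genes (Benjamini-Hochberg, 0.05, two-sided). The calculation was tested on simulated data.

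Groups came from the treatment labels. The members, the 49 gene lists and the tests were chosen with earlier results of these data known. The text names the 12 largest rises and falls, at most 4 called members per list, at most 6 genes named by the study and at most 6 promoters, and exceptions are marked. Some genes that this rule names are not reported here. Total FPKM ran from 265035 to 511321, and no libraries held identical values. Alternatives were 3 other scalings, a pseudocount of 0.1, a filter on a mean FPKM of 1, no filter, only the 10 libraries, a replicate block, library weights, a trended robust fit, unnamed transcripts added to their locus, leaving out each library, and leaving out the 3 libraries with the most multiply aligned read pairs by the authors' alignment statistics. Libraries of glyphosate and Roundup were not used here. The FPKM hold no counts, so the depth behind a value was not used here.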

Additional observations from a re-analysis of the deposited data

Results flagged for a closer look

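In each group of 5, a library was picked out where its gap to the nearest of the others, divided by the range of the group on the log2 scale, was above 0.71. Chance alone picks out about 1 in 20 groups. Among the 115 genes named above, with 230 groups, this happened 36 times, and 24 of these were replicate 1 of the 1 µM group. In scaled FPKM, that library stood above the other 4 in 13 genes and below them in 11. Among the low values were ADH1C at 0 against 6.46 to 10.6, AHR at 20.6 against 47.2 to 55.8, ATF3 at 9.64 against 13.4 to 15.3, CAV1 at 19.6 against 49.3 to 58.6 and CPS1 at 1.43 against 2.56 to 3.03. It also held CTH at 8.89 against 12.5 to 13.6, CYP2B6 at 2.59 against 8.04 to 10.3, EREG at 2.04 against 4.99 to 6.46, FOXA1 at 1.83 against 3.08 to 3.501 and HSD17B6 at 0 against 5.43 to 9.25. Further low values were PTN at 0 against 5.96 to 8.32. Among the high values were ANKRD13C at 23.7 against 11.3 to 13.04, CDKN1A at 271 against 183 to 192, CYP1B1-AS1 at 38.3 against 13.2 to 16.3, CYP27A1 at 30.0 against 15.0 to 17.8 and DHRS3 at 58.97 against 34.9 to 38.5. The same library held EGFR at 49.6 against 29.0 to 32.2, FZD7 at 7.25 against 2.93 to 3.80, KRT19 at 354 against 134 to 164, LRP5 at 63.0 against 51.3 to 53.8 and PFKFB3 at 15.6 against 7.62 to 8.31. Further high values were PLEKHF1 at 48.7 against 23.5 to 26.5, PPP1R15A at 35.7 against 16.9 to 20.0 and TGFA at 17.0 against 8.79 to 10.7. Without this library the log2 fold change went from 1.40 to 1.22 in ANKRD13C, from 1.05 to 1.15 in ATF3, from -1.74 to -1.45 in CAV1, from 0.62 to 0.52 in CDKN1A, from -0.96 to -0.84 in CPS1 and from 1.72 to 1.82 in CTH. It went from 2.95 to 2.68 in CYP1B1-AS1, from 0.87 to 0.71 in CYP27A1, from 1.70 to 2.00 in CYP2B6, from 0.90 to 0.76 in DHRS3, from 0.46 to 0.33 in EGFR and from 1.52 to 1.75 in EREG. It moved from -1.01 to -0.89 in FOXA1, from 1.43 to 1.25 in FZD7, from 1.67 to 1.61 in LRP5, from -1.20 to -1.38 in PFKFB3, from 1.06 to 0.89 in PPP1R15A and from 0.76 to 0.62 in TGFA. The values for ADH1C, AHR, HSD17B6, KRT19, PLEKHF1 and PTN are given above. The cause was not tested.

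Other libraries stood apart in single genes. Replicate 1 of the control held CA9 at 11.05 against 23.3 to 25.96, CYP1B1 at 19.1 against 10.2 to 11.1, HIST1H2AE at 57.4 against 34.3 to 37.6, PPP1R15A at 12.3 against 8.83 to 9.38 and SERPINB2 at 1.30 against 0.334 to 0.546. Replicate 2 of the control held CYP27A1 at 7.38 against 10.0 to 10.4 and LYPD1 at 9.14 against 6.24 to 6.73. Replicate 3 of the control held ALDH3A1 at 134 against 94.6 to 104. Replicate 4 of the control held RARA at 4.72 against 7.40 to 8.79. Replicate 5 of the control held VWCE at 1.05 against 2.62 to 3.46. Replicate 3 of the 1 µM group held SPP1 at 20.4 against 23.9 to 25.1. For SCARA3, replicate 2 of the 1 µM group was at 0.0295 while the other 4 were listed at 0.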

How the results depend on the processing

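The direction of all 115 named genes was the same under the 12 alternative settings and with any 1 of the 10 libraries left out. The choice of most of them by the fit to these libraries favours this. The number of calls was less stable than the directions. Against 546 genes higher and 539 lower at 1 µM (1085 in all), there were 63 and 119 (182) without scaling, 274 and 254 (528) in a fit of only the 10 libraries and 854 and 831 (1685) with unnamed transcripts added to their locus. With 75th percentile scaling, 40.7% of the calls were higher in place of 50.3%, with 446 and 651 genes and a median log2 fold change over all genes of -0.08. Leaving out 1 library gave 415 to 565 higher, 378 to 579 lower and 793 to 1144 in all. Without the 3 libraries with the most multiply aligned read pairs there were 402 and 416, and 695 of the 1085 calls were shared. For 1 µM against 10 nM, 1 gene was called in the reported fit, 0 without scaling, with quantile normalization, with a pseudocount of 0.1 and with the filter on mean FPKM, 8 without a filter, 8 with the replicate block, 26 with library weights, 15 with unnamed transcripts added, and 0 to 2 with 1 library left out. The fit of only the 10 libraries gives no value for 10 nM. Among the named genes, 37 calls were lost without scaling, 7 in the fit of only the 10 libraries, 1 after quantile normalization, 2 without the 3 libraries and 1 without a filter. One of these was FZD6, with adjusted p of 0.199 in the 10 libraries, 0.155 without the 3 libraries, 0.0582 without a filter and 0.0503 to 0.0945 without any 1 of 6 libraries. The others are given with their adjusted p above, and the cause was not tested.

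The labels give no replicate numbers shared between groups. The library numbers in the sample titles do run in consecutive sets, each with 1 library of the control and of each concentration. The replicate numbers used here follow these sets. Whether the libraries of a set were cultured or prepared together is not given in the labels. The reported fit did not use the sets. Same-numbered control and 1 µM libraries deviated together with correlations of 0.0035 to 0.124 over genes, and 1 µM libraries 1 to 5 correlated best with control libraries 5, 2, 2, 4 and 5. With the number as a replicate block, 587 genes were higher and 631 lower, and no named gene lost its call. The precision rests on 5 libraries per group, with a median standard error of 0.17 on the log2 scale. Small changes were therefore detectable only in genes with a smaller standard error. The values are relative within a library, and a change of total RNA per cell cannot be seen in them.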
